A study of Mus musculus with 8 samples.

Results

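The retinoic acid pathway was followed through 9 genes in sorted mouse spermatogonia: the receptors Rxra, Rxrb, Rara and Rarg, the binding proteins Crabp1 and Crabp2, and the enzymes Rdh10, Dhrs3 and Cyp26b1. They were taken by gene symbol from the deposited expression table, and all 9 were found in it among 17589 genes. They hold 29 of its 45550 transcript entries. RNA was measured in 8 libraries, 4 labelled KDM1A KO and 4 labelled control, from testes of GOF/deltaPE-Oct4/GFP mice of strain C57BL/6, taken 6 days after birth. Every animal thus carried the Oct4-GFP reporter, which marks germ cells and by which the cells were sorted. The labels' protocol writes the knockout as Kdm1a-cKO. The sources used here describe neither the allele nor what drives its deletion, and do not state whether each library is a separate animal, so p-values measure the spread between these libraries, which may be technical. Kdm1a encodes a histone demethylase, and the study asked how its loss alters gene expression in these cells.

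Retinol is oxidised to retinal and then to retinoic acid, which enters the nucleus with the help of small binding proteins. There it binds a retinoic acid receptor (RAR) paired with a retinoid X receptor (RXR) on DNA, and CYP26 enzymes clear it. In the testis, retinoic acid drives undifferentiated spermatogonia into differentiation and later into meiosis, and much of the early supply comes from Sertoli cells, the somatic cells that nurse the germ cells. Expression is given as FPKM, fragments per kilobase of transcript scaled by library size, summed over the transcript entries of a gene. FPKM are per length, so levels of different genes can be set side by side.

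Kdm1a was lower in every library labelled as knockout. It had 14.2, 14.1, 17.3 and 14.9 FPKM in knockout replicates 1 to 4, against 53.7, 54.0, 92.0 and 48.1 FPKM in control replicates 1 to 4. Its log2 change was -1.92 (limma, Benjamini-Hochberg adjusted p = 6.88e-05). The 10 germ cell markers summed to 1626 to 2144 FPKM in knockout libraries and 1803 to 1941 FPKM in control libraries. Uchl1 and Dazl made up most of these sums. Of the 10 markers, 2 did not overlap between groups, and both were lower in the knockout: Sall4 and Zbtb16, a transcription factor of undifferentiated spermatogonia, with 29.5, 12.8, 21.3 and 25.9 FPKM in knockout replicates 1 to 4, against 71.8, 57.3, 61.3 and 54.3 FPKM in control replicates 1 to 4. Of all 13483 genes averaging 1 FPKM or more over the libraries, 38.6% did not overlap between groups, so 2 of 10 is not above that share. Which germ cells each sort held was not tested. The 11 Sertoli cell markers, all in the table and 2 of them under 1 FPKM in every library, summed to 66.9, 33.7, 88.1 and 80.7 FPKM in knockout replicates 1 to 4, against 74.2, 23.7, 24.6 and 33.0 FPKM in control replicates 1 to 4. The 4 endothelial markers summed to 11.2 to 12.1 FPKM in knockout libraries and 3.98 to 5.62 FPKM in control libraries, and the 2 of 5 erythroid markers in the table to 1.60 to 2.50 FPKM and 0.282 to 0.760 FPKM in knockout and control libraries. Of the endothelial markers, Pecam1 (4.55 FPKM in knockout and 1.39 FPKM in control libraries) and Tek (4.13 and 1.05 FPKM) did not overlap between groups, while Cdh5 (2.08 and 1.86 FPKM) and Kdr (0.833 and 0.811 FPKM) did. Of the erythroid markers, Alas2 did not overlap (1.65 FPKM in knockout and 0.289 FPKM in control libraries), while Hbb-b1 did (0.234 and 0.268 FPKM). These were 2 of 4 endothelial and 1 of 2 erythroid markers, too few to set apart from the 38.6% of all genes. Leydig (2 of 7 in the table), peritubular (5 of 5) and macrophage (2 of 5) markers each summed to under 8 FPKM in every library, with overlapping groups. Library depth, inferred from the values, was 45125000 to 62800000 fragments in knockout libraries and 60700000 to 67550000 fragments in control libraries.

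In each group, Crabp1 was by far the most abundant of the 9 genes and the enzymes and Crabp2 were the least. In knockout libraries the order of mean FPKM ran Crabp1, Rxrb, Rxra, Rarg, Rara, Rdh10, Dhrs3, Cyp26b1 and Crabp2. In control libraries it ran Crabp1, Rxra, Rxrb, Rarg, Rara, Rdh10, Crabp2, Dhrs3 and Cyp26b1. In knockout libraries the ranges of Rxra, Rarg and Rara overlapped from neighbour to neighbour, as did those of the last 4 genes. In control libraries Rxra overlapped Rxrb, Rarg overlapped Rara, and the last 3 genes overlapped. Among the 13483 genes tested, whose FPKM averaged 1 or more over all libraries, Crabp1 stood at the 96.9th percentile in knockout libraries and the 95.6th in control libraries, and Rxra at the 52.5th in knockout libraries and the 73.8th in control libraries.

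All 9 genes passed that minimum. At an adjusted p under 0.05, 2 fell (Rxra and Rara) and 2 rose (Crabp1 and Dhrs3) in the knockout, and 5 were not called. Of all genes tested, 12.1% were called lower and 25.3% higher. The libraries of the groups did not overlap for 3 of the 9 (Rxra, Rara and Crabp1), against 38.6% of all genes. In either direction 4 of the 9 were called, against 37.5% of all genes, a share too near the background to set the pathway apart. The median log2 change was -0.04 for the 9 and 0.09 for all genes tested.

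**Figure D1:**
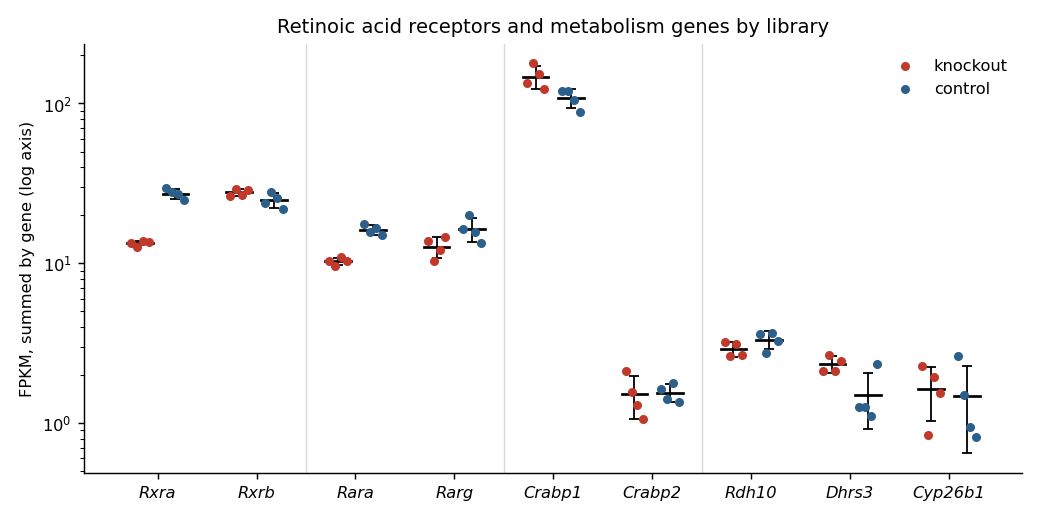
Levels of the 9 genes in each library, in FPKM on a log axis, with knockout libraries left of control libraries. Points are libraries, and bars are the mean ± SD of 4; Rxra, Rara and Crabp1 show no overlap between the groups, and Dhrs3 has a single control library, at 2.33 FPKM, among the knockout values.

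Rxra encodes a retinoid X receptor, the obligate partner of the RARs. The gene lies at chr2:27676440-27762957 on the plus strand of mm10. Rxra had 13.5, 12.7, 13.8 and 13.6 FPKM in knockout replicates 1 to 4, against 29.4, 27.7, 27.1 and 24.7 FPKM in control replicates 1 to 4. Every knockout library was far below every control library, and values within a group lay close together. The mean was 13.4 ± 0.461 FPKM in knockout and 27.2 ± 1.96 FPKM in control libraries (SD, n = 4 each), 2.04-fold lower in the knockout. The log2 change was -0.97 (SE 0.08, 95% interval -1.14 to -0.80; limma, adjusted p = 2.42e-05). These values rest on 2733 to 8699 fragments per library. Fewer cells expressing a gene and less RNA per cell cannot be told apart in bulk samples. Sertoli marker sums overlapped between the groups while Rxra did not, and the endothelial and erythroid sums, which did not overlap, were higher in the knockout; their part in the result was not tested.

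Nearly all of the Rxra signal sat on a single transcript entry, Rxra-201, which encodes 467 residues and had 13.2 ± 0.531 FPKM in knockout and 27.0 ± 1.83 FPKM in control libraries (log2 change -0.98, adjusted p = 0.000201 over all entries). The window around its annotated start is given because this entry carries the gene's signal, and those of the RAR genes follow for comparison. No value here measures promoter activity. Each window is from RefSeq on GRCm38.p6 and runs from 250 bases before to 50 bases after the annotated start, 5′ to 3′ along the gene. Windows were searched on both strands for the half-sites bound by these receptors, which are AGGTCA in its common form, the form AGTTCA, the form GGGTCA and lastly the form GGTTCA, all shown in capitals in either orientation. The Rxra-201 window, chr2:27676951-27677250 on the plus strand, is 83.0% G and C and holds none of them. A further RefSeq window of Rxra, at chr2:27709042-27709341, holds 3 of them, and no Rxra entry of the table starts within 100 bases of its start site.
Rxra-201 start: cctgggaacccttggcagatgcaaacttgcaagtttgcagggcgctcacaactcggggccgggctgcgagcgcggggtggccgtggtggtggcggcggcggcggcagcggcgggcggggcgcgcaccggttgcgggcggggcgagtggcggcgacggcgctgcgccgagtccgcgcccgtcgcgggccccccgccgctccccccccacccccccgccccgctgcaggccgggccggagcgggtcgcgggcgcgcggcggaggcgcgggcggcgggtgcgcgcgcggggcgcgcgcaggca

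Rxrb, at chr17:34031812-34038399 on the plus strand, encodes another retinoid X receptor. Rxrb had 26.5, 28.9, 26.9 and 28.8 FPKM in knockout replicates 1 to 4, against 24.0, 28.1, 25.6 and 21.9 FPKM in control replicates 1 to 4. The groups overlapped. The mean was 27.8 ± 1.27 FPKM in knockout and 24.9 ± 2.62 FPKM in control libraries (SD, n = 4 each), with a log2 change of 0.16 (SE 0.09, 95% interval -0.04 to 0.35; limma, adjusted p = 0.193). Its most abundant entry, Rxrb-202, which encodes 410 residues, held 59.8% of the gene's signal in knockout and 57.4% in control libraries.

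The ratio of the 2 RXR genes did not overlap between the groups. The ratio of Rxrb to Rxra was 1.96, 2.28, 1.95 and 2.12 in knockout replicates 1 to 4, against 0.815, 1.01, 0.946 and 0.887 in control replicates 1 to 4. Rxrb was about as abundant as Rxra in control libraries and clearly the more abundant in every knockout library. The mean ratio was 2.08 ± 0.152 in knockout and 0.915 ± 0.0845 in control libraries (SD, n = 4 each), a difference of 1.19 on the log2 scale. A two-sided exact permutation test over the 70 assignments gave p = 0.0286, the smallest this design allows, and 0.0857 after adjustment over 3 ratios that were chosen after the values were seen. A ratio within a library does not change when the whole library is divided by a single factor. Quantile normalization is not of that kind and can change it. It shows unequal change of the 2 genes and not which of them changed. The third retinoid X receptor gene, Rxrg, averaged 0.261 FPKM in knockout and 0.594 FPKM in control libraries and fell below the minimum for testing. Its groups did not overlap, at 0.178 to 0.316 FPKM in knockout and 0.457 to 0.832 FPKM in control libraries. Without that minimum it was called lower.

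**Figure D2:**
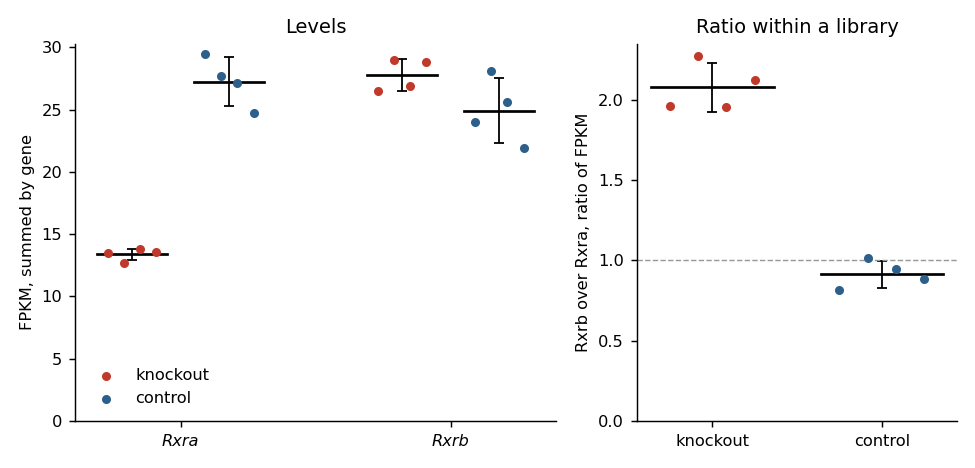
Left, FPKM of Rxra and Rxrb in each library; right, the ratio of Rxrb to Rxra within each library, with knockout left of control and a dashed line at equal levels. Points are libraries and bars the mean ± SD of 4; the 4 knockout ratios lie between 1.95 and 2.28, above all 4 control ratios, which lie between 0.815 and 1.01.

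The 3 tested genes whose log2 levels followed Rxra most closely over the 8 libraries were Msi1, Mov10 and Pdgfa, with Pearson correlations of 0.998, 0.997 and 0.996. All 3 were called lower in the knockout, with means of 26.2, 36.8 and 5.70 FPKM in knockout libraries and 74.0, 67.3 and 13.3 FPKM in control libraries. These correlations describe 8 points that share a group difference.

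Rara encodes RAR alpha, a ligand-binding receptor, and lies at chr11:98927818-98974942 on the plus strand. Rara had 10.4, 9.59, 10.9 and 10.3 FPKM in knockout replicates 1 to 4, against 17.6, 15.8, 16.6 and 14.9 FPKM in control replicates 1 to 4. All knockout libraries lay below all control libraries. The mean was 10.3 ± 0.543 FPKM in knockout and 16.2 ± 1.13 FPKM in control libraries (SD, n = 4 each), 1.57-fold lower in the knockout. The log2 change was -0.61 (SE 0.08, 95% interval -0.79 to -0.42; limma, adjusted p = 0.000479), from 1138 to 2770 fragments per library.

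Rarg encodes RAR gamma, the receptor known for its part in differentiating spermatogonia, and lies at chr15:102234938-102257517 on the minus strand. Rarg had 13.8, 10.3, 12.0 and 14.6 FPKM in knockout replicates 1 to 4, against 16.4, 20.05, 15.6 and 13.3 FPKM in control replicates 1 to 4. Control replicate 4 lay below knockout replicates 1 and 4, so the groups overlapped. The mean was 12.7 ± 1.92 FPKM in knockout and 16.3 ± 2.80 FPKM in control libraries (SD, n = 4 each), and the log2 change of -0.34 (SE 0.14, 95% interval -0.65 to -0.02) did not pass the test (limma, adjusted p = 0.0872). Whether Rarg is called depends on scaling and on a single library. It was called lower with median-ratio scaling (adjusted p = 0.0392), with quantile normalization (0.0428) and without control replicate 4 (0.0478).

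The ratio of Rarg to Rara was 1.33, 1.08, 1.10 and 1.42 in knockout replicates 1 to 4, against 0.931, 1.27, 0.940 and 0.892 in control replicates 1 to 4. The groups overlapped through control replicate 2. The log2 difference was 0.29 (exact permutation p = 0.114, and 0.114 after adjustment over the 3 ratios), so a different response of the 2 genes was not shown. Rarb, the third RAR gene and a retinoic acid target, averaged 0.498 FPKM in knockout and 0.298 FPKM in control libraries, below the minimum for testing. Its groups did not overlap, at 0.444 to 0.566 FPKM in knockout and 0.182 to 0.344 FPKM in control libraries. Without that minimum it was called higher.

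Both RAR genes start from alternative promoters that give proteins with different N-terminal ends, and the deposited values separate their entries. Windows are shown for the tested entries that have a RefSeq window at their start. Rara-202 and Rara-203, the Rara entries called lower, have no such window, so their starts were not searched. Rara-207 is a minor entry, with 4.13% of the Rara signal in control and 17.1% in knockout libraries. Rara-204 (alpha1 form, 462 residues) starts in chr11:98937446-98937745 and Rara-207 (also 462 residues) in chr11:98939461-98939760, both on the plus strand. Rarg-201 (gamma1 form, 458 residues) starts in chr15:102257473-102257772 and Rarg-202 (gamma2 form, 447 residues) in chr15:102246451-102246750, both on the minus strand. The Rara-207 window holds 4 half-sites, the Rarg-201 window 1, and the windows of Rara-204 and Rarg-202 none. A further Rara window, at chr11:98964622-98964921, holds 1, and no Rara entry of the table starts within 100 bases of its start site. Of 32851 RefSeq windows of this length, 43.7% hold at least 1 of the half-sites, and 16.3% hold AGGTCA. Direct repeats of the half-sites spaced by 1, 2 or 5 bases occurred in 0.222%, 0.268% and 0.0974% of windows and in none of the 15 windows found for 7 of the 9 genes. At rates this low, 15 windows were unlikely to hold any, so the absence of repeats carries no information. A match or its absence in these letters describes the window and says nothing of receptor binding.
Rara-204 start: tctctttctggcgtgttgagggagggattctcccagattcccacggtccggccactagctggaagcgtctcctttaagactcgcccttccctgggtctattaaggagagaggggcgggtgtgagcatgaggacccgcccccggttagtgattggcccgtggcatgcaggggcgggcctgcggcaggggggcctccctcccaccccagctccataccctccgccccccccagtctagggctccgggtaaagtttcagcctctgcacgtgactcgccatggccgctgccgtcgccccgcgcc
Rara-207 start: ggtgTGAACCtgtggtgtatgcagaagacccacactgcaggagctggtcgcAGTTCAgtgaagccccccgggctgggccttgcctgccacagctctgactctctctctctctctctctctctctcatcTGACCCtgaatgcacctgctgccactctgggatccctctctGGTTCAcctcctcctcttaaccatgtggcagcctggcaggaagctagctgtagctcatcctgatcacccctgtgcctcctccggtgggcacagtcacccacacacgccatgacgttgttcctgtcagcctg
Rarg-201 start: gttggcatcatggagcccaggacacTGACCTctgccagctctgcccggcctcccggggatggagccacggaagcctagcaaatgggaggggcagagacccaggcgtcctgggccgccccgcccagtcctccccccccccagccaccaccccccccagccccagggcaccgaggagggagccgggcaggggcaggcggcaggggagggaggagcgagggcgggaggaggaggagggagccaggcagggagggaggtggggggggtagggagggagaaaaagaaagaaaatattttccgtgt
Rarg-202 start: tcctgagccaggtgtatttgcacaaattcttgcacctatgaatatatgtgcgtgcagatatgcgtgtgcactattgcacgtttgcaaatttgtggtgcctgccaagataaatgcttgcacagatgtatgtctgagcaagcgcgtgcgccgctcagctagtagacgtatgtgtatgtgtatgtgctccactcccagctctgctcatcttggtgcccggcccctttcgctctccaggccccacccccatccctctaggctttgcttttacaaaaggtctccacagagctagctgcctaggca

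Of the 29 transcript entries of the 9 genes, 21 were annotated as protein coding and 16 reached a mean of 1 FPKM. Among these, 3 were called, all lower: Rxra-201, Rara-203 and Rara-202. Of all 26612 entries tested, 5.93% were called lower and 12% higher. Cufflinks estimates how fragments are divided among entries that share exons, so values of single entries are less certain than gene sums.

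Rara-203, another alpha1 entry with a start of its own upstream, had 2.36, 2.62, 1.63 and 2.28 FPKM in knockout replicates 1 to 4, against 4.82, 4.28, 5.92 and 6.07 FPKM in control replicates 1 to 4. The groups did not overlap, and the log2 change was -0.96 (adjusted p = 0.00362 over all entries). Rara-202, the alpha2 form of 459 residues, had 1.64, 1.58, 2.06 and 1.36 FPKM in knockout replicates 1 to 4, against 3.25, 2.63, 3.66 and 2.78 FPKM in control replicates 1 to 4. Its log2 change was -0.62 (adjusted p = 0.0154), a call that was lost without control replicate 3. Rara-204 had 5.37, 2.48, 5.62 and 4.86 FPKM in knockout replicates 1 to 4, against 8.25, 7.76, 6.55 and 5.14 FPKM in control replicates 1 to 4, and was not called (log2 change -0.53, adjusted p = 0.142). Summed by form, alpha1 entries held 8.64 ± 0.433 FPKM in knockout and 13.1 ± 0.900 FPKM in control libraries, a ratio of 0.658. The alpha2 entry held 1.66 ± 0.296 FPKM in knockout and 3.08 ± 0.469 FPKM in control libraries, a ratio of 0.538. Both forms were thus below control in every knockout library.

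Rara-207 ran the other way. It had 0.818, 2.79, 1.52 and 1.80 FPKM in knockout replicates 1 to 4, against 1.02, 0.361, 0.456 and 0.850 FPKM in control replicates 1 to 4, with knockout replicate 1 inside the control range. Its log2 change of 0.68 was not called (adjusted p = 0.0798). Its share of the Rara signal was 17.1% ± 8.91 in knockout and 4.13% ± 1.87 in control libraries (SD, n = 4 each), and that share was not called either (adjusted p = 0.0867). None of the 10 shares tested for these genes was called, against 0.21% of all 19076 shares; at an unadjusted p under 0.05 there were 2 of 10, Rara-207 and Rarg-202, against 14.1% of all.

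The gamma forms of Rarg were not called. Rarg-201 had 6.72, 3.98, 7.08 and 7.66 FPKM in knockout replicates 1 to 4, against 8.92, 11.1, 9.18 and 7.10 FPKM in control replicates 1 to 4 (log2 change -0.47, adjusted p = 0.134). Rarg-202 had 6.83, 6.34, 4.78 and 6.24 FPKM in knockout replicates 1 to 4, against 6.04, 7.89, 5.92 and 5.28 FPKM in control replicates 1 to 4 (log2 change -0.04, adjusted p = 0.854). In means, gamma1 was lower in the knockout and gamma2 was nearly level. The share of Rarg-202 was 48.3% ± 9.67 in knockout and 38.5% ± 1.28 in control libraries (SD, n = 4 each; adjusted p = 0.321), so a switch between the forms was not shown.

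**Figure D3:**
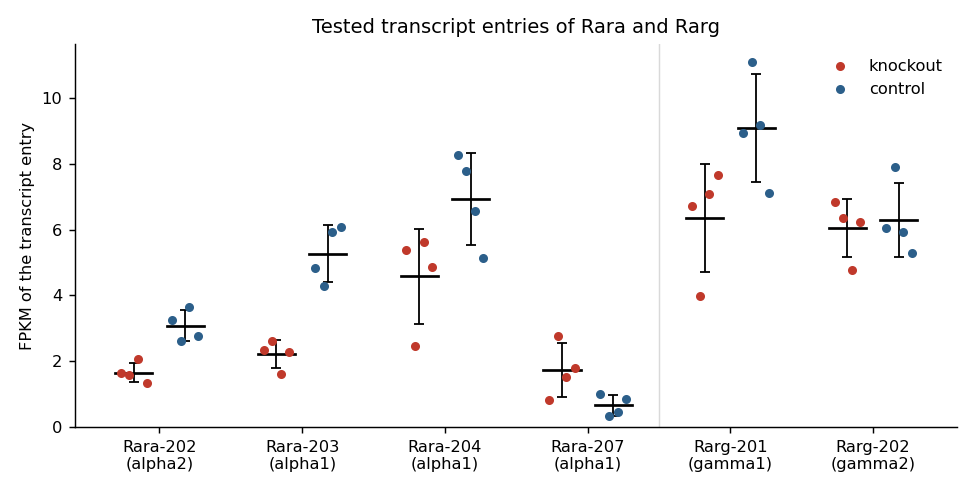
FPKM of the tested transcript entries of Rara and Rarg in each library, knockout left of control. Points are libraries and bars the mean ± SD of 4; Rara-202 and Rara-203 are lower in every knockout library than in any control library, while the groups overlap for the other entries.

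Crabp1 and Crabp2 encode cellular retinoic acid-binding proteins, which hold retinoic acid in the cytoplasm. CRABP1 is known to pass it towards breakdown and CRABP2 towards the receptors. Crabp1, at chr9:54764748-54773110 on the plus strand, had 134.0, 177.9, 152.1 and 123.5 FPKM in knockout replicates 1 to 4, against 119.1, 120.1, 105.8 and 88.4 FPKM in control replicates 1 to 4. All knockout libraries lay above all control libraries, though by a narrow gap. The mean was 146.9 ± 23.8 FPKM in knockout and 108.4 ± 14.8 FPKM in control libraries (SD, n = 4 each), 1.36-fold higher in the knockout. The log2 change was 0.43 (SE 0.14, 95% interval 0.12 to 0.74; limma, adjusted p = 0.0348). The call was lost with median-ratio scaling (adjusted p = 0.119), quantile normalization (0.0588) and equal protein-coding totals (0.0655). It was also lost without knockout replicate 3 (0.0878), control replicate 3 (0.0788) or control replicate 4 (0.0848).

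Crabp2, at chr3:87948666-87953376 on the plus strand, was scarce. It had 2.12, 1.57, 1.30 and 1.05 FPKM in knockout replicates 1 to 4, against 1.63, 1.41, 1.79 and 1.36 FPKM in control replicates 1 to 4. The groups overlapped, and the log2 change was -0.04 (SE 0.14, 95% interval -0.34 to 0.27; limma, adjusted p = 0.859), from 39.7 to 104 fragments per library. The ratio of Crabp1 to Crabp2 was 63.1, 113.4, 116.9 and 117.2 in knockout replicates 1 to 4, against 72.9, 85.2, 59.1 and 64.9 in control replicates 1 to 4. Knockout replicate 1 lay within the control range, and the log2 difference of 0.51 did not pass (exact permutation p = 0.114).

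Rdh10 encodes the dehydrogenase that oxidises retinol to retinal, the step that limits retinoic acid synthesis in embryos. It lies at chr1:16105774-16133734 on the plus strand. Rdh10 had 3.23, 2.61, 3.12 and 2.66 FPKM in knockout replicates 1 to 4, against 3.62, 2.75, 3.68 and 3.25 FPKM in control replicates 1 to 4. The groups overlapped, with means of 2.90 ± 0.315 FPKM in knockout and 3.32 ± 0.425 FPKM in control libraries (SD, n = 4 each). The log2 change was -0.14 (SE 0.11, 95% interval -0.39 to 0.10; limma, adjusted p = 0.321). Under quantile normalization it was -0.34 and called lower (adjusted p = 0.0215).

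Dhrs3 encodes a reductase that turns retinal back into retinol, and is itself induced by retinoic acid in many tissues. It lies at chr4:144892827-144928209 on the plus strand. Dhrs3 had 2.11, 2.67, 2.13 and 2.46 FPKM in knockout replicates 1 to 4, against 1.25, 1.26, 1.11 and 2.33 FPKM in control replicates 1 to 4. Control replicate 4 lay among the knockout values and the other 3 control libraries below all of them. The mean was 2.34 ± 0.274 FPKM in knockout and 1.49 ± 0.566 FPKM in control libraries (SD, n = 4 each), 1.57-fold higher in the knockout. The log2 change was 0.45 (SE 0.15, 95% interval 0.11 to 0.79; limma, adjusted p = 0.0432), from only 87.7 to 181 fragments per library. Leaving out control replicate 4 gave 0.60 (adjusted p = 0.00366), while leaving out any other library ended the call, as did median-ratio scaling (adjusted p = 0.0939), quantile normalization (0.217) and equal protein-coding totals (0.0536). Its most abundant entry alone was not called (adjusted p = 0.226).

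Cyp26b1 encodes a hydroxylase that breaks down retinoic acid and is known in the testis for holding it low around fetal germ cells. It lies at chr6:84571414-84593908 on the minus strand. Cyp26b1 had 2.26, 0.841, 1.93 and 1.54 FPKM in knockout replicates 1 to 4, against 2.62, 1.49, 0.944 and 0.813 FPKM in control replicates 1 to 4. The groups overlapped over most of their range. The log2 change was 0.12 (SE 0.24, 95% interval -0.42 to 0.67; limma, adjusted p = 0.721). Its lowest knockout value fell in the knockout library with the lowest Sertoli marker sum (replicate 2, 33.7 FPKM). Its highest control value fell in the control library with the highest such sum (replicate 1, 74.2 FPKM). Other libraries did not keep that order. Control replicate 2 had a Sertoli sum of 23.7 FPKM with Cyp26b1 at 1.49 FPKM, and control replicate 4 had 33.0 and 0.813 FPKM. Knockout replicate 3, with the highest sum (88.1 FPKM), was below knockout replicate 1 in Cyp26b1. The part of Sertoli RNA in the Cyp26b1 values was not tested.

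How libraries are scaled matters for these changes. FPKM divide by a library-wide total, and the median change over all genes was 0.09 as deposited, -0.04 with median-ratio scaling, -0.02 with quantile normalization, 0.00 with equal totals of protein-coding genes and 0.74 with equal totals of all entries. Rxra changed by -0.97, -1.11, -1.06, -1.06 and -0.28 under these scalings in the same order, and Rara by -0.61, -0.74, -0.71, -0.70 and 0.067. Rxra and Rara were called lower under the first 4. Under equal totals of all entries neither was called (adjusted p = 0.303 and 0.816) and Rara turned in sign, but relative to the median of all genes under that scaling they stood at -1.02 and -0.67. Of the 9 genes, 2 were called higher and 2 lower as deposited. The counts were 0 and 3 with median-ratio scaling, 0 and 4 with quantile normalization, and 0 and 2 with equal protein-coding totals. With equal totals of all entries they were 4 and 0. Over all genes tested, the count was 3417 higher and 1635 lower of 13483 as deposited, and 2377 and 2769 of 13465 with median-ratio scaling. It was 2655 and 2648 of 13483 with quantile normalization, and 2569 and 1938 of 11824 with equal protein-coding totals. With equal totals of all entries it was 9808 and 147 of 13781. The calls of Rxra and Rara as lower thus held under 3 of the 4 other scalings. Those of Crabp1 and Dhrs3 as higher held under 1 of the 4, equal totals of all entries, where most genes were called higher. Relative to the median of all genes, Crabp1 and Dhrs3 stood at 0.42 and 0.18 there, against 0.34 and 0.35 as deposited.

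**Figure D4:**
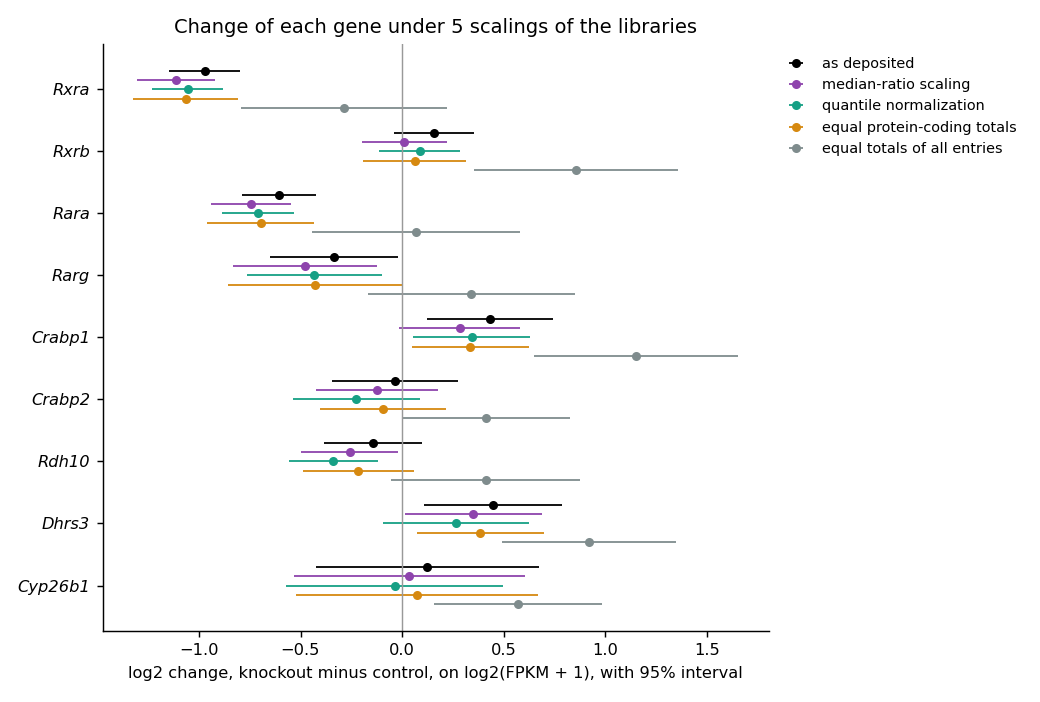
Log2 change of each gene, knockout minus control, with its 95% interval, under 5 scalings of the libraries. Rxra and Rara lie left of 0 under the first 4 scalings; under equal totals of all entries (grey), where the median of all genes is 0.74, every gene is shifted to the right and Rara stands at 0.067.

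Around the 9 genes, 49 other genes of retinoid uptake, supply, breakdown and receptor function were listed. Of these 40 were in the table and 28 were tested: 10 were higher (35.7%) and 6 lower (21.4%) in the knockout, and 12 were not called. Of all genes tested, 25.3% were higher and 12.1% lower. The median log2 change was 0.20 for these genes, against 0.09 for all genes.

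Of the other listed enzymes that interconvert retinol and retinal, not counting Rdh10 and Dhrs3, 7 were tested and 5 fell below the minimum. Among the 7 tested, 5 were higher and 0 lower, with a median log2 change of 0.75. Of all genes, 25.3% were higher. The count of 5 called higher became 4 with median-ratio scaling or quantile normalization, and without any 1 library other than knockout replicate 1. Akr1b8, an aldo-keto reductase, had 45.0, 73.2, 52.0 and 50.2 FPKM in knockout replicates 1 to 4, against 15.2, 8.87, 15.6 and 15.8 FPKM in control replicates 1 to 4, 3.97-fold higher in the knockout (log2 change 1.92, adjusted p = 0.000113). Rdh11, Rdh12 and Rdh14, members of a family that reduces retinal, averaged 8.27, 2.49 and 12.1 FPKM in knockout libraries, against 3.92, 0.762 and 6.69 FPKM in control libraries. Their log2 changes were 0.90, 0.99 and 0.75 (adjusted p = 0.000955, 0.000138 and 0.00156), and none of the 3 overlapped between groups. Rdh5 was the fifth, with a log2 change of 0.35 (adjusted p = 0.0442), and Rdh13 and Adh5 were not called. Akr1b8, Rdh11, Rdh12 and Rdh14 were called higher under all 5 scalings.

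The dehydrogenases that make retinoic acid from retinal were not called, 0 of 3, against 37.5% of all genes called in either direction. With 1 library left out, 1 of the 3 was called higher without knockout replicate 2, knockout replicate 4 or control replicate 1. All 3 were called higher with equal totals of all entries, a scaling under which 9808 of all 13781 genes tested were called higher. Aldh1a1 had 12.5, 4.03, 13.4 and 11.7 FPKM in knockout replicates 1 to 4, against 10.3, 2.15, 2.997 and 4.81 FPKM in control replicates 1 to 4 (log2 change 0.98, adjusted p = 0.108). Its low knockout library and its high control library were those with the lowest knockout and the highest control Sertoli marker sums; their part was not tested. Aldh1a3 had 4.02, 10.7, 9.17 and 3.63 FPKM in knockout replicates 1 to 4, against 2.12, 3.88, 3.86 and 4.02 FPKM in control replicates 1 to 4, with overlapping groups (log2 change 0.72, adjusted p = 0.0999). Aldh1a2 averaged 12.6 ± 0.684 FPKM in knockout and 11.2 ± 1.26 FPKM in control libraries (adjusted p = 0.208). Cyp26a1, a further hydroxylase, averaged 1.75 ± 0.440 FPKM in knockout and 2.44 ± 0.408 FPKM in control libraries (adjusted p = 0.0905).

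Among coregulators, through which the receptors repress or activate genes, 4 of 9 were lower and 1 higher, against 12.1% lower and 25.3% higher among all genes. Those called lower included the coactivators Ncoa3, with 23.8 ± 4.13 FPKM in knockout and 33.8 ± 3.48 FPKM in control libraries (log2 change -0.50, adjusted p = 0.0158), Med1 (log2 change -0.25, adjusted p = 0.0413) and Crebbp (log2 change -0.94, adjusted p = 0.0454). Ncoa1, also a coactivator, averaged 3.10 ± 0.996 FPKM in knockout and 1.24 ± 0.429 FPKM in control libraries and was called higher (log2 change 0.86, adjusted p = 0.00813). The coregulators called lower numbered 2 with equal protein-coding totals and 0 with equal totals of all entries or with the most abundant entry of each gene. They also numbered 2 without knockout replicate 3 or 4, or without control replicate 1, 2 or 3, and 3 without knockout replicate 2. They numbered 5 with median-ratio scaling or without knockout replicate 1, and 4 with quantile normalization or without control replicate 4. The count of 4 thus moved in both directions with single libraries and with scaling.

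Other carriers and receptors moved both ways. Fabp5, a fatty acid-binding protein that can carry retinoic acid to PPAR delta, averaged 7.88 ± 1.03 FPKM in knockout and 3.001 ± 0.520 FPKM in control libraries (log2 change 1.15, adjusted p = 0.000144). Ppard, which encodes that receptor, averaged 2.70 ± 0.376 FPKM in knockout and 4.64 ± 0.647 FPKM in control libraries (log2 change -0.61, adjusted p = 0.0039). Of the orphan receptors, Nr2f6 was lower, with 31.2 ± 3.31 FPKM in knockout and 52.5 ± 4.27 FPKM in control libraries (log2 change -0.73), and Nr2c1 was higher, with 2.97 ± 0.235 FPKM in knockout and 1.72 ± 0.124 FPKM in control libraries (log2 change 0.54). Rbp4, a retinol carrier, and Retsat, which saturates retinol, were called higher, with log2 changes of 0.47 and 0.66.

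**Figure D5:**
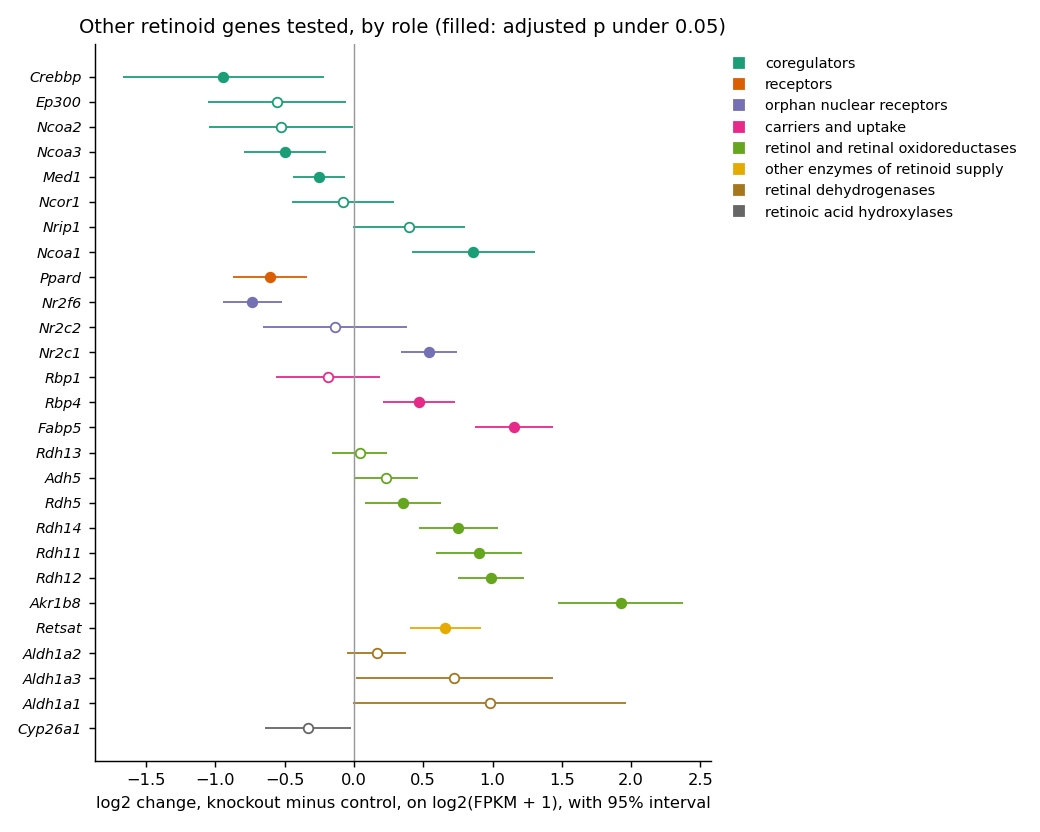
Log2 change, knockout minus control, with its 95% interval, of 27 of the 28 other retinoid genes tested, coloured by role. Filled points passed an adjusted p of 0.05; the oxidoreductases include 5 filled points, all right of 0, and the coregulators drawn 3 filled points left of 0 and 1 right of it.

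Of 25 listed genes that respond to retinoic acid or act beside it in differentiating germ cells, 12 were tested: 2 were higher (16.7%), 2 lower (16.7%) and 8 not called. Among all genes 25.3% were higher and 12.1% lower, so these counts lie near the background. Sohlh2, a germ cell transcription factor, had 117.9, 82.2, 103.2 and 102.9 FPKM in knockout replicates 1 to 4, against 56.7, 57.4, 50.3 and 47.1 FPKM in control replicates 1 to 4 (log2 change 0.92, adjusted p = 0.000367). Rec8, a meiotic cohesin, had 17.96, 20.6, 20.7 and 18.6 FPKM in knockout replicates 1 to 4, against 13.3, 13.8, 13.9 and 13.8 FPKM in control replicates 1 to 4 (log2 change 0.48, adjusted p = 0.00117). Sall4, a regulator of undifferentiated spermatogonia, fell to 46.4 ± 8.94 FPKM in knockout libraries, against 76.4 ± 5.06 FPKM in control libraries (log2 change -0.72, adjusted p = 0.00175). Ripk4, a kinase gene, had a log2 change of -0.33 (adjusted p = 0.0235), a call that held without 3 of the 8 libraries in turn and turned in sign under equal totals of all entries. Stra8, the best known target in spermatogonia, had 42.3, 84.9, 61.6 and 39.0 FPKM in knockout replicates 1 to 4, against 70.9, 71.6, 56.9 and 48.1 FPKM in control replicates 1 to 4. The groups overlapped (log2 change -0.17, adjusted p = 0.614). Kit, the receptor that marks differentiating spermatogonia, had 31.9, 15.3, 30.1 and 29.5 FPKM in knockout replicates 1 to 4, against 59.9, 60.3, 33.3 and 30.2 FPKM in control replicates 1 to 4, and was not called (log2 change -0.74, adjusted p = 0.0710).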

How the data were processed

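RNA of sorted Oct4-GFP positive spermatogonia was sequenced in 8 libraries, 4 knockout and 4 control, from stranded mRNA kits, per the labels' protocols. The authors deposited FPKM for 45550 transcript entries; TopHat, Bowtie, Cufflinks and Cuffdiff with mm10 are named in the submitters' processing notes, without versions. Entries were summed to 17589 genes by gene identifier. GENCODE M21, whose build GRCm38 equals mm10, gave positions and transcript names and holds 44291 of the entries. No exon of the 9 genes overlaps one of another gene there.

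Tests used limma 3.58.1 (R 4.3.3; lmFit, then eBayes with a trend) on log2(FPKM + 1), a pseudocount of 1, with group as the only term, for genes averaging 1 FPKM or more across libraries. P-values were two-sided and adjusted by Benjamini-Hochberg over all 13483 genes, and calls were made at 0.05. Log2 changes are knockout minus control on that scale, which understates changes of low genes; folds divide mean FPKM. Entries, and log2 shares of entries within genes, were fitted the same way. The fits were also run on simulated data. For genes and entries, few features were changed there, all of them well above the minimum. Scarce genes such as Dhrs3, Crabp2 and Cyp26b1, and data with many changes, were thus not covered. Ratios within libraries were compared by exact permutation tests over libraries.

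Depth was inferred from the steps between low FPKM of genes with 1 entry: 62.1% to 67.6% of values of up to 20 fragments were whole to within 0.1 fragment, where chance gives 20%, so no count model was run. Fragment numbers cover counting error only.

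The genes and lists were chosen with earlier results of these data known. Named genes were all 9 genes and their tested entries, a few fixed genes, up to 8 called genes of each list by adjusted p, and the 3 tested genes most like Rxra; Rdh5, Rdh13, Adh5, Aldh1a1, Aldh1a2, Aldh1a3, Cyp26a1, Ncoa1, Ncoa3, Med1, Crebbp, Ppard, Rbp4, Retsat, Rarb, Rxrg and the markers named singly were added after their values were seen, to complete their roles. Of the coregulators, 1 is counted but not reported here. Other settings tried were the pseudocount, the filter, 4 other scalings, the trend, a replicate block, the most abundant entry and each library left out. Same-numbered libraries did not deviate together (correlations 0.22, -0.12, -0.13 and -0.09 for replicates 1 to 4), so the numbers were not taken as pairs.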

Additional observations from a re-analysis of the deposited data

Results flagged for a closer look

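In 8 of 82 groups of 4 libraries, a single library stood apart from the other 3 by more than Dixon's 95% critical value, which chance gives in about 1 of 20 groups. Among the 9 genes this was Dhrs3, at 2.33 FPKM in control replicate 4, against 1.11 to 1.26 FPKM in the other control libraries. Among the ratios it was Rarg over Rara, at 1.27 in control replicate 2 and 0.892 to 0.940 in the others, and Crabp1 over Crabp2, at 63.1 in knockout replicate 1 and 113.4 to 117.2 in the others.

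In knockout replicate 2, Sall4 stood at 59.8 FPKM, against 40.8 to 43.4 FPKM in the other knockout libraries, and Kit at 15.3 FPKM, against 29.5 to 31.9 FPKM. Akr1b8 stood at 8.87 FPKM in control replicate 2, against 15.2 to 15.8 FPKM in the other control libraries. Rec8 stood at 13.3 FPKM in control replicate 1, against 13.8 to 13.9 FPKM in the others, and Kdm1a at 92.0 FPKM in control replicate 3, against 48.1 to 54.0 FPKM in the others.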

How the results depend on the processing

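Rxra and Rara kept their direction and their calls with any 1 library left out, with a pseudocount of 0.1, without the filter, without the trend and with the replicate number as a block. Scaling moved most. With equal totals of all entries, 9808 genes were called higher and 147 lower, against 3417 and 1635 as deposited; Rara (0.067), Ripk4 (0.35) and Stra8 (0.54, adjusted p = 0.0455) turned in sign. The split was 2377 higher and 2769 lower with median-ratio scaling, and 2655 and 2648 with quantile normalization. A sign change was counted only where 1 of the values was called. Of the 9 genes, 2 were called with equal protein-coding totals, against 4 as deposited. Target genes called numbered 10 without the filter and 9 with equal totals of all entries, against 4. Entries called numbered 6 with equal totals of all entries, against 3, and shares 1 without the filter (Rara-207), against 0. With 1 library left out, 2658 to 3855 genes were called higher and 1170 to 2025 lower, with 2 to 4 of the 9 genes, 13 to 17 other retinoid genes, 3 to 6 target genes, 2 to 4 entries and 0 shares. Only 2 of the 9 were called without knockout replicate 3 or without control replicate 3. With the most abundant entry of each gene, only Rxra of the 9 was called, and Rara was not (adjusted p = 0.142 for Rara-204). Where not given above, the cause was not tested. The replicate block gave 2983 genes higher and 1408 lower, with 4 of the 9 called; among the genes named by rule it ended only the call of Ripk4 (adjusted p = 0.0639). The block left 2 coregulators lower, against 4, 4 oxidoreductases higher, against 5, and 1 retinal dehydrogenase higher, against 0. Quantile normalization was not run for shares. Crabp2, Dhrs3 and Cyp26b1, at 39.7 to 654 fragments a library, are the members that depth limits most.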
